A study of Mus musculus with 2 samples.

Results

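The carbonic anhydrases described here are 9 genes of this family, *Car2*, *Car3*, *Car4*, *Car8*, *Car10*, *Car11*, *Car12*, *Car13* and *Car14*, taken by gene symbol from the RNA-seq tables of mouse optic nerve. All 9 were listed in both libraries, among 23951 gene symbols found in both, and they make up 9 of the 16 family genes listed. The other 7 family genes are given at the end for comparison. RNA was sequenced from optic nerves at P12, in 1 control library (genotype Tcf7l2 c/+; OLig1-cre) and 1 *Tcf7l2*ΔHMG library (Tcf7l2 c/c; OLig1-cre). Both groups carried the Cre transgene, and the control animals had 1 floxed *Tcf7l2* allele, so neither group was wild type. Olig1-Cre acts in the oligodendrocyte (OL) lineage, whereas the RNA came from the whole nerve. Mice of both sexes and of mixed background were used. The floxed exon encodes the DNA-binding HMG domain, and a mutant mRNA and protein can still be made after its loss. *Tcf7l2* itself was at 17.8 FPKM in the control against 14.6 FPKM in the mutant (log2 ratio −0.28), and this level for the whole gene does not test whether the exon was lost. FPKM counts fragments relative to transcript length and to all mapped fragments, so levels can be compared between genes. How many animals went into each library is not given in the sources used here.

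Carbonic anhydrases are zinc enzymes that turn carbon dioxide and water into bicarbonate and a proton, and back. They buffer pH and supply bicarbonate transporters and proton-coupled carriers with their substrates. In the central nervous system *Car2* is known above all as an enzyme of OLs and myelin, and a few family members have lost catalysis and serve as binding proteins instead. The 3 histidines that hold the zinc divide the members into enzymes and related proteins, and so the coding sequence around them is shown first. In each of the 8 windows, read from the mouse transcript in GENCODE M21, the codons at the 3 zinc positions are in capitals. They are codons 94, 96 and 119 of *Car2*, counted from the start codon as 1.
Car2: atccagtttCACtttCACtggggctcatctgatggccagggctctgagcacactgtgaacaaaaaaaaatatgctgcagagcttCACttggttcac
Car3: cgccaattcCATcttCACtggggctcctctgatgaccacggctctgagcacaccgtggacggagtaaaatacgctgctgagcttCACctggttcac
Car13: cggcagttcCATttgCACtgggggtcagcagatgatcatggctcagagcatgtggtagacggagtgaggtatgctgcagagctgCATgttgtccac
Car4: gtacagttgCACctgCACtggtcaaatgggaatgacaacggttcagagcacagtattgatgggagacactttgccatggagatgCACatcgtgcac
Car12: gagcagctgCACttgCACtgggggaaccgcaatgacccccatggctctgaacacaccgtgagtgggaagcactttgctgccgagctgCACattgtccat
Car14: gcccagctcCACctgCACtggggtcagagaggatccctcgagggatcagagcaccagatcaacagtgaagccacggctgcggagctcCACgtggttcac
Car10: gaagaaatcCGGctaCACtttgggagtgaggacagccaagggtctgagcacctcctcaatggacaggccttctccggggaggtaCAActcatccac
Car11: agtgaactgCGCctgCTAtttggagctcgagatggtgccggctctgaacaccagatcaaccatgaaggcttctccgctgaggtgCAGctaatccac

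Histidine is encoded by CAC or CAT. Of these 8 members, 6 had a histidine codon at all 3 positions: the cytosolic enzymes *Car2*, *Car3* and *Car13* and the membrane-bound enzymes *Car4*, *Car12* and *Car14*. *Car10* kept 1, between CGG and CAA, and *Car11* kept 0, with CGC, CTA and CAG. All 7 other family genes had 3. Over the aligned coding bases, identity with *Car2* was 63.5% for *Car3* and 60.9% for *Car13*. It was 47.5% for *Car12*, 46.4% for *Car14*, 46.1% for *Car4*, 43.6% for *Car10* and 42.9% for *Car11*.

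The members differed widely in level, and their order was alike in both libraries but for 2 pairs of neighbours. Each value below is given with its Cufflinks interval, which measures error within 1 library only. *Car2* had the highest level in both and made up 49.5% of the summed FPKM of the members in the control and 49.4% in *Tcf7l2*ΔHMG. *Car14* came next with 24.2% and 21.5%. *Car11* ranked above *Car13*, and *Car8* above *Car3*, in the control, and both pairs stood the other way round in the mutant. Neighbours in the order had intervals that did not overlap, except *Car13* and *Car4* in the control and *Car3* and *Car8* in the mutant. *Car10* and *Car12* were lowest in both libraries. Summed over the 9 members, the level was 110.2 FPKM in the control against 150.2 FPKM in the mutant (1.36-fold).

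**Figure D1:**
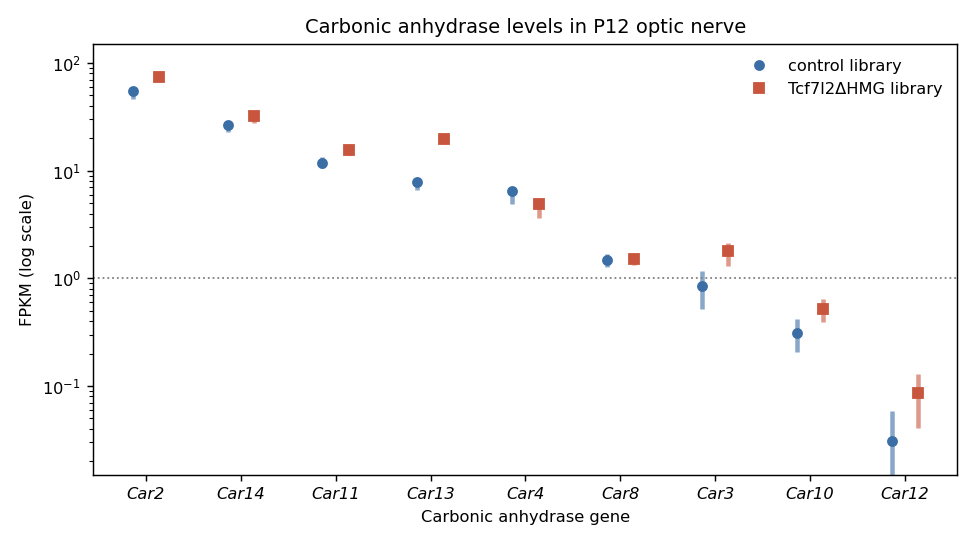
FPKM (log axis) of the 9 carbonic anhydrases in the control and *Tcf7l2*ΔHMG optic nerve libraries, 1 point per library; vertical bars are Cufflinks intervals, which in some cases do not reach the point, and the dotted line marks 1 FPKM. *Car2* lay highest and *Car12* lowest in both libraries, and the control interval of *Car12* reaches down to 0, which a log axis cannot show.

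To ask which carbonic anhydrases differed between the genotypes, the log2 ratio of mutant to control FPKM was computed after 0.1 was added to each value, which understates the difference of low genes. Genes that reached 1 FPKM in either library were compared, 14199 in all, and 7 of the 9 members were among them. *Car13* and *Car3* were higher in the mutant by more than 1.5-fold, none of the 7 was lower by that much, and 5 lay within it. Of all genes compared, 15.4% were higher and 8.52% lower by more than 1.5-fold. By any amount, 6 of the 7 were higher in the mutant, against 54.6% of all genes, but this direction depends on the scaling: with all rows of each library rescaled to one sum, which shifts the log2 ratio by −0.67 before the pseudocount and by less in low genes, *Car2*, *Car8*, *Car11* and *Car14* came out lower as well, and *Car8* also did so after centring on the median or rescaling named rows only. Unnamed rows held 70.7% of the summed FPKM of all rows in the control and 80.7% in the mutant. Under that scaling 3.67% of all genes were higher and 54.4% lower by more than 1.5-fold. The log2 shift was −0.07 for the sum of named rows, 0.01 for the 75th percentile and −0.05 for centring on the median. Cufflinks intervals lay apart in 5 of the 7, *Car2*, *Car3*, *Car11*, *Car13* and *Car14*, each higher in the mutant as deposited. Over all genes compared, 30.0% were higher and 22.4% lower with intervals apart. The median log2 ratio of the 7 was 0.37, with a range from −0.41 to 1.30, and that of all genes compared was 0.047. With 1 library per genotype there is no replicate check, variation between animals is unknown, and no p-value was computed. With 2 libraries, likeness of pattern between genes could not be measured either.

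**Figure D2:**
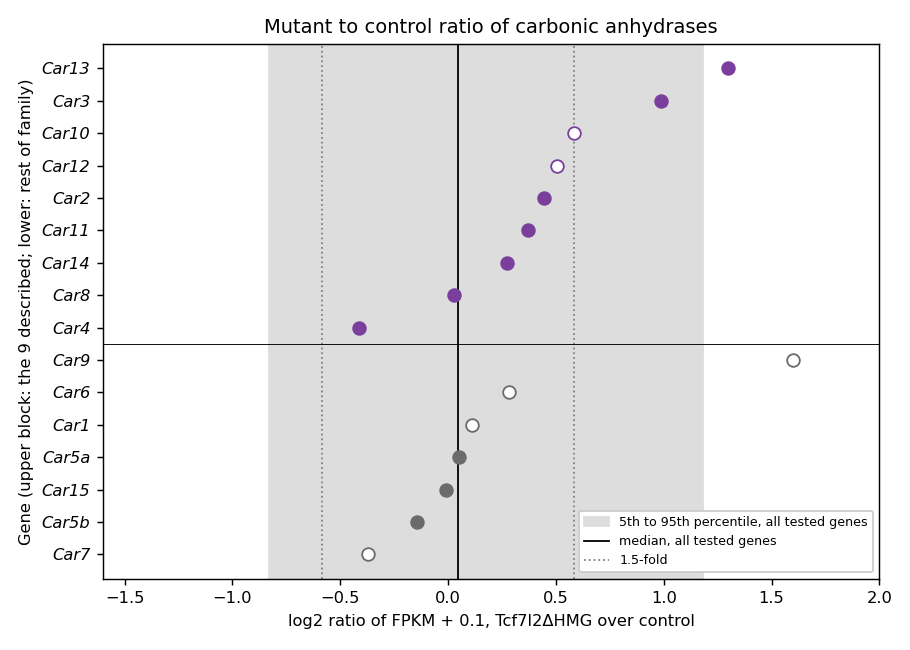
Log2 ratio of FPKM + 0.1, *Tcf7l2*ΔHMG over control, for the 9 carbonic anhydrases (upper block) and the other 7 family genes (lower block), 1 library per genotype; open symbols are genes under 1 FPKM in both libraries, the grey band holds the middle of all genes compared (5th to 95th percentile), the solid line their median and dotted lines 1.5-fold. *Car13* and *Car3* are the filled points past 1.5-fold and *Car4* is the lowest, at −0.41. Rescaling all rows to one sum, most of which lies in unnamed rows, would move the points to the left, low genes least. *Car2*, *Car8*, *Car11* and *Car14* would then lie below 0.

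*Car2*, *Car3* and *Car13* lie together on chromosome 3, where *Car13*, *Car1*, *Car3* and *Car2* follow each other within 259 kb (positions in mm9, the build named in the labels). *Car2*, the fast cytosolic enzyme of OLs, choroid plexus and red blood cells, lies at chr3:14886426-14900770. It had 54.6 FPKM in the control (interval 46.7 to 52.0) and 74.2 FPKM in the mutant (interval 71.8 to 77.5). The mutant library was the higher one by 1.36-fold (log2 ratio 0.44), short of 1.5-fold, and 78.9% of all genes compared had a lower ratio. The control FPKM lay above its own interval. With the midpoint of the interval in place of the FPKM the log2 ratio was 0.60, past 1.5-fold. The mutant row of *Car2* also starts 196 bases further upstream.

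*Car13*, a cytosolic enzyme, lies at chr3:14641727-14663002 in the control. It had 7.88 FPKM in the control (interval 6.63 to 8.39) and 19.5 FPKM in the mutant (interval 18.5 to 20.7). This was the largest difference among the 9 members, 2.46-fold (log2 ratio 1.30), and 95.8% of all genes compared had a lower ratio. Its share of the members' summed FPKM was 7.15% in the control and 13.0% in the mutant. The rows of the gene differ between the libraries, however. In the mutant the row starts 125 bases earlier and ends 808 bases further on. In the control an unnamed row of 728 bases, chr3:14663081-14663808, lies 78 bases beyond the end of *Car13*, where the mutant row extends. This unnamed row had 12.02 FPKM (interval 7.56 to 11.3, below the FPKM). Set against 12.02 FPKM in place of 7.88, the mutant level was 1.62-fold higher (log2 ratio 0.70), still past 1.5-fold at the deposited scaling. With all rows rescaled to one sum, the log2 ratio of *Car13* against its own control row was 0.63. The unnamed row was not put in its place under that scaling.

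**Figure D3:**
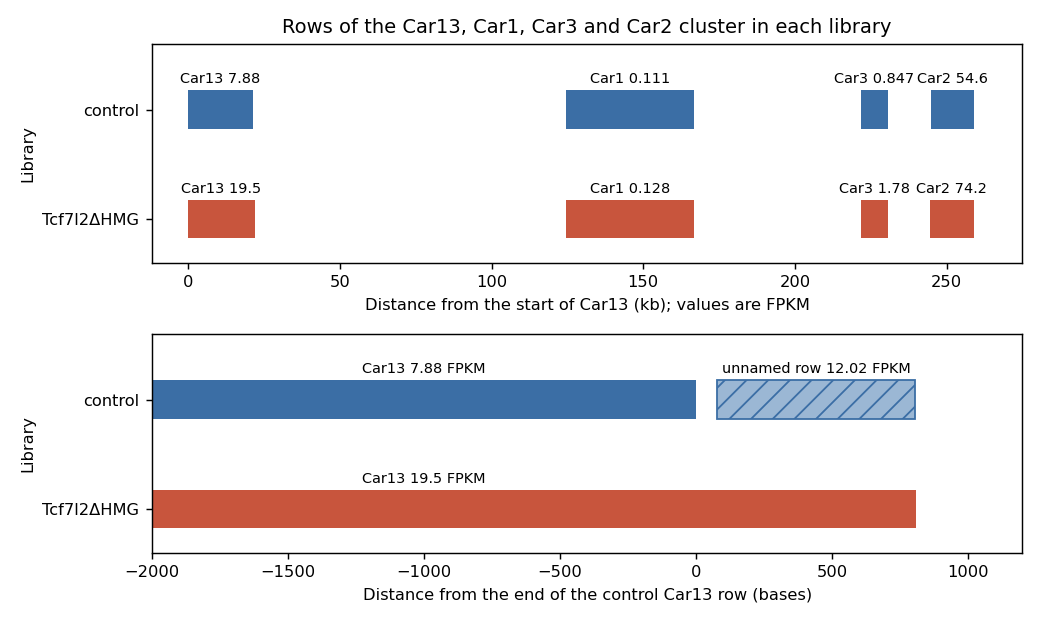
Rows of the carbonic anhydrase cluster on chromosome 3 in the control and *Tcf7l2*ΔHMG libraries, to scale, in kb from the start of *Car13* (above) and in bases from the end of its control row (below), with FPKM beside the rows. The row of *Car13* ends earlier in the control, where an unnamed row of 12.02 FPKM lies just beyond it, than in the mutant.

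*Car3*, the slow cytosolic enzyme of skeletal muscle and fat, lies at chr3:14863538-14872373. It had 0.847 FPKM in the control (interval 0.521 to 1.16) and 1.78 FPKM in the mutant (interval 1.29 to 2.13). The mutant level was 1.98-fold higher (log2 ratio 0.99) and the intervals did not overlap, but *Car3* was compared only because its mutant level passed 1 FPKM. Skeletal muscle markers were low, and the 12 summed to 19.7 FPKM in the control against 24.6 FPKM in the mutant. Of these, 6 reached 1 FPKM, and 3 of the 6 were higher by more than 1.5-fold and none lower, against 15.4% and 8.52% of all genes. Of the 3, *Actn2* (0.522 and 1.28 FPKM) and *Myl1* (0.827 and 1.39 FPKM) were, like *Car3*, compared only because their mutant level passed 1 FPKM. *Myh4*, under the filter in both libraries, was lower in the mutant (0.215 and 0.0340 FPKM). Of the adipocyte markers 2 of 10 reached 1 FPKM: *Cidea* had 7.62 and 11.1 FPKM, within 1.5-fold, and *Fabp4* had 1.243 and 0.516 FPKM, lower by more than 1.5-fold. *Adipoq*, which defines fat cells, was at 0.0352 and 0.0244 FPKM. The part of muscle and fat RNA in the *Car3* values was not tested. With all rows rescaled to one sum, the log2 ratio of *Car3* was 0.34, no longer past 1.5-fold. Together the 3 cytosolic enzymes summed to 63.3 FPKM in the control against 95.5 FPKM in the mutant (1.51-fold).

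The membrane-bound enzymes face the extracellular space. *Car14*, a transmembrane enzyme, lies at chr3:95701723-95708562. It had 26.7 FPKM in the control (interval 22.7 to 26.6) and 32.3 FPKM in the mutant (interval 27.7 to 31.7). The mutant was higher by 1.21-fold (log2 ratio 0.27), within 1.5-fold, and both FPKM lay above their own intervals. The row of *Car14* overlaps that of *Aph1a*, a subunit of gamma-secretase, by 793 bases. *Aph1a* had 45.0 FPKM in the control against 31.1 FPKM in the mutant (log2 ratio −0.53). Whether the libraries kept the strand is not given in the sources used here, and fragments in the overlap cannot be told apart.

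*Car4*, which is held on the cell surface by a lipid anchor and is known from capillary endothelium, lies at chr11:84771256-84779556. It had 6.54 FPKM in the control (interval 4.87 to 7.10) and 4.89 FPKM in the mutant (interval 3.66 to 5.22). It was the only compared member that was lower in the mutant (log2 ratio −0.41), the difference was within 1.5-fold and the intervals overlapped. In the control alone, an unnamed row of 348 bases with 2.499 FPKM lay inside *Car4*, and its part in the *Car4* values was not tested. The 10 endothelial markers had a median log2 ratio of −0.30 and summed to 230.6 FPKM in the control against 194.6 FPKM in the mutant. Of the 10, 1 was higher and 2 lower by more than 1.5-fold, against 15.4% and 8.52% of all genes. The part of endothelial cells in the *Car4* values was not tested. *Car12*, another transmembrane enzyme, lies at chr9:66561493-66614652. It had 0.0309 FPKM in the control (interval 0 to 0.0585) and 0.0856 FPKM in the mutant (interval 0.0404 to 0.128). On its longest transcript 3 fragments give 0.0292 FPKM in the control against 0.0202 FPKM in the mutant, so the control level was that of about 3 fragments and no difference could be read at this depth. Summed, the membrane-bound enzymes had 33.3 FPKM in the control against 37.2 FPKM in the mutant.

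Because *Tcf7l2* binds DNA through its HMG box, the 250 bases before the RefSeq start sites were taken for the members that are in the promoter table (GRCm38.p6). These were *Car4*, *Car10*, *Car11*, *Car12* and *Car14*, and no entry was found for *Car2*, *Car3*, *Car8* and *Car13*. The promoters of the highest member with an entry and of the single compared member that was lower are shown, *Car14* at chr3:95904686-95904935 on the minus strand and *Car4* at chr11:84957504-84957753 on the plus strand. Capitals mark CAAAG, which is CTTTG on the opposite strand, the core shared by TCF/LEF factors.
Car14: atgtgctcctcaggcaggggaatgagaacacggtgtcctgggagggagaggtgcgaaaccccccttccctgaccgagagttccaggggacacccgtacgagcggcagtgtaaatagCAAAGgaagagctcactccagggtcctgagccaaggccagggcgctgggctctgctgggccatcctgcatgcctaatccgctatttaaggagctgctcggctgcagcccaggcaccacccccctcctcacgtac
Car4: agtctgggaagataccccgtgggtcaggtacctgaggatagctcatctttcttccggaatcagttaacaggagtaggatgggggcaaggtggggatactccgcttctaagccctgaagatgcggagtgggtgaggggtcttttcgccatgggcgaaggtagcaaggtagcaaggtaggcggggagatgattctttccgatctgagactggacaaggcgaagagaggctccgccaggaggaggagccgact

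CTTTG was searched on both strands in windows of 300 bases that also include 50 bases after the start. It was found in 1 of the 7 windows of the 5 members, at position −134 of *Car14*, and in 53.9% of all 32851 windows. ACAAT, a Sox core that can share end letters with CTTTG, was found in 0 of the 7 and in 31.0% of all windows. Such short letters are common, and a match or its lack says nothing of binding.

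No related protein passed 1.5-fold as deposited. *Car11*, a secreted protein known to bind neurexins, lies at chr7:52955337-52960031. It had 11.9 FPKM in the control (interval 10.5 to 13.2) and 15.4 FPKM in the mutant (interval 14.1 to 16.7). The mutant level was higher by 1.29-fold (log2 ratio 0.37), with intervals apart but within 1.5-fold. *Car8*, which binds the IP3 receptor and is best known from Purkinje cells, lies at chr4:8068640-8166188. It had 1.48 FPKM in the control (interval 1.27 to 1.68) and 1.51 FPKM in the mutant (interval 1.33 to 1.68), a log2 ratio of 0.03. The intervals overlapped almost entirely. *Car10*, the other neurexin ligand, lies at chr11:92960604-93463065. It had 0.314 FPKM in the control (interval 0.206 to 0.423) and 0.520 FPKM in the mutant (interval 0.390 to 0.645). Both levels were under 1 FPKM and the intervals overlapped. Its log2 ratio was 0.58, just short of 1.5-fold. It was 0.71, past 1.5-fold, with a pseudocount of 0.01, and 0.21 with one of 1. Rescaled to the same 75th percentile it was 0.59, past 1.5-fold but under the filter. With named rows rescaled to one sum it was 0.59, past 1.5-fold. The filter of 1 then stood on the rescaled values, and *Car10* passed it in the mutant library only. The 3 related proteins summed to 13.7 FPKM in the control against 17.4 FPKM in the mutant.

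The genes that these proteins work with were counted from 6 lists. Of their 48 genes 36 were compared, 8 were higher and 2 lower by more than 1.5-fold, against 15.4% and 8.52% of all genes, and the median log2 ratio was −0.01. With all rows rescaled to one sum, 2 were higher and 19 lower, and the calls below are those of the values as deposited. Of 8 bicarbonate transporters 2 were higher. *Slc26a7*, an anion exchanger, had 4.59 FPKM in the control against 17.6 FPKM in the mutant, and *Slc4a10*, which takes up bicarbonate with sodium, had 10.5 and 19.7 FPKM. The most abundant one, *Slc4a4*, the sodium bicarbonate cotransporter of astrocytes, had 36.7 and 52.2 FPKM, within 1.5-fold. Of 9 sodium-proton exchangers and their scaffolds 2 were higher, *Slc9a2* (5.72 and 11.8 FPKM) and *Slc9a7* (1.73 and 3.92 FPKM). The scaffold *Slc9a3r2* (38.1 and 21.0 FPKM) and the exchanger *Slc9a5* (2.82 and 1.75 FPKM) were lower.

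Of 6 genes for proton-coupled lactate transport 1 was higher, the carrier *Slc16a8*, known from the retinal pigment epithelium, with 5.39 FPKM in the control against 14.4 FPKM in the mutant. Of the markers of retina and pigment epithelium, *Rpe65* was at 0.0221 and 0.0153 FPKM, *Tyr* at 2.29 and 2.42 FPKM and *Rlbp1*, which other glia also express, at 10.6 and 13.7 FPKM, and their part in the *Slc16a8* values was not tested. Their chaperone *Bsg*, the most abundant gene of the list, had 480.1 and 392.9 FPKM. None of 4 water and potassium channels passed 1.5-fold, and *Aqp4*, the water channel of astrocytes, had 181.7 and 148.5 FPKM. Among 6 neurexins and neuroligins, where the neurexins are the partners of *Car10* and *Car11*, *Nrxn2* (25.8 and 40.3 FPKM) and *Nrxn3* (1.90 and 2.92 FPKM) were higher. Of the 3 IP3 receptors *Itpr3* was higher, with 2.13 and 3.97 FPKM.

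The level of *Car2* is set here beside the cell types that carry it. Of all genes compared, 15.4% were higher and 8.52% lower by more than 1.5-fold. All 12 OL markers were found, 9 were lower in the mutant by more than 1.5-fold and none higher. Their median log2 ratio was −1.07 and their range −2.04 to 0.02, so each of the 12 had a lower ratio than the 0.44 of *Car2*, an order that no scaling of whole libraries alters. Their summed level was 15424 FPKM in the control against 6858 FPKM in the mutant. Of 6 OL precursor markers 1 was lower, with a median of −0.27. Of the 10 astrocyte markers 2 were higher, with a median of 0.34 and sums of 5181 and 6158 FPKM. Red blood cell markers had higher ratios than *Car2*: all 6 that were compared were higher by more than 1.5-fold, with a median of 1.25, and their summed level was 163.0 FPKM in the control against 403.2 FPKM in the mutant. Some globin symbols share a row, so these are fewer than 6 measurements. The red blood cell marker *Alas2* (0.607 and 1.39 FPKM) was compared only because its mutant level passed 1 FPKM. *Car1*, the other carbonic anhydrase of red blood cells, was at 0.111 and 0.128 FPKM, with intervals from 0 in both. The part of red blood cells and of astrocytes in the *Car2* values was not tested. In such bulk tissue, fewer cells of a type and less RNA per cell cannot be told apart.

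**Figure D4:**
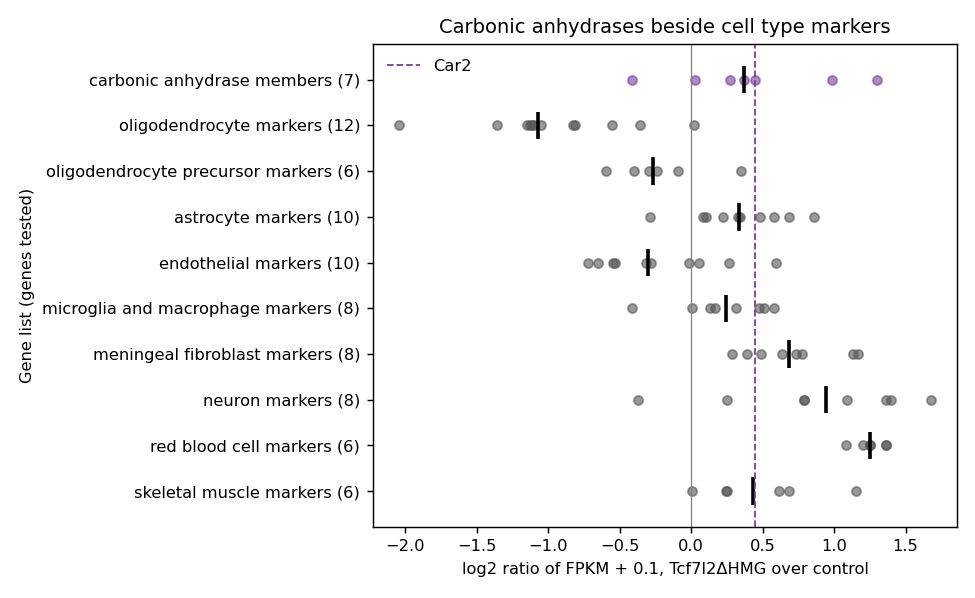
Log2 ratio of FPKM + 0.1, *Tcf7l2*ΔHMG over control, for each compared carbonic anhydrase (top row) and each compared gene of the marker lists shown, 1 library per genotype; black bars are medians, the dashed line is *Car2* and numbers in brackets are genes compared. All 12 oligodendrocyte markers lie below *Car2* (0.44) and all 6 compared red blood cell markers lie above it.

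Other markers give the setting of the remaining values. Neuron markers were higher for 6 of 8 compared genes, meningeal fibroblast markers for 5 of 8 and pericyte and smooth muscle markers for 1 of 7, with 1 of these 7 lower. None of the 8 microglia markers passed 1.5-fold. Only 2 of 10 retina markers reached 1 FPKM. Of the choroid plexus and Schwann cell markers 2 of 6 reached 1 FPKM, 1 higher and 1 lower. The part of these cell types in the carbonic anhydrase values was not tested. The depth read from the interval bounds came to 27624000 control and 39938000 mutant fragments, 1.45 times as many, so low members carry more counting error in the control. At these depths 3 fragments on 1 kb give 0.109 and 0.0751 FPKM.

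The other 7 family genes were low. Of these 3 reached 1 FPKM and none passed 1.5-fold. The mitochondrial enzyme *Car5b* had 4.10 FPKM in the control against 3.69 FPKM in the mutant, and the related *Car5a* 1.84 and 1.91 FPKM. *Car15*, an enzyme anchored in the membrane like *Car4*, had 1.42 and 1.41 FPKM. *Car7*, a cytosolic enzyme of neurons, had 0.516 and 0.375 FPKM, and the secreted *Car6* was listed at 0 in the control and had 0.0215 FPKM in the mutant. *Car9*, a membrane enzyme known from hypoxic tumours, had 0.201 FPKM in the control (interval 0.0749 to 0.330) and 0.813 FPKM in the mutant (interval 0.507 to 1.12). Its intervals did not overlap, but both levels were under 1 FPKM. The 7 summed to 8.18 FPKM in the control against 8.35 FPKM in the mutant, against 110.2 and 150.2 FPKM for the 9 members.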

How the data were processed

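The data were 1 control and 1 *Tcf7l2*ΔHMG library of P12 optic nerve RNA. The authors aligned reads by TopHat with its defaults and estimated FPKM by Cufflinks. Each row of the deposited tables holds an FPKM, the bounds of its interval and a status. The labels name mm9, and versions are not given in the sources used here. Merged names were split, each name taking the full FPKM of its row, and rows of 1 symbol were summed. Genes with status OK in each library that reached 1 FPKM in either were compared by log2 of FPKM plus 0.1, with a fold change above 1.5 as the rule of size. The members and lists were chosen with earlier results of these data known. All family genes are named, and from other lists genes past 1.5-fold or the most abundant one. Depth was the value at which 98.2% (control) and 98.4% (mutant) of the interval bounds of unnamed rows under 100 bases were whole fragments within 0.005. Unnamed rows held 70.7% and 80.7% of the summed FPKM, and the FPKM of named rows lay outside its own interval in 7.26% and 8.64%. A planned protein comparison was replaced by the coding sequence of GENCODE M21 transcripts (longest open reading frame), aligned with MAFFT 7.526, and the window of 1 member is not reported here. Promoters came from RefSeq. The alternatives were other pseudocounts, filters, scalings, row rules and calls. The interval midpoint, leaving out merged names and the unnamed row beside *Car13* were chosen after seeing the data. Scripts were tested on simulated data. Python 3.11.15, numpy 2.4.6, pandas 2.3.3, matplotlib 3.10.9 and Biopython 1.88 were used.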

Additional observations from a re-analysis of the deposited data

Results flagged for a closer look

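An unnamed row of 263 bases inside *Car11*, chr7:52956322-52956584 in mm9, had 9.48 FPKM in the mutant library, above the 0.286 FPKM that 3 fragments give on that length, and no unnamed row lay there in the control. The FPKM lay above its own interval of 1.71 to 4.19. It belongs to none of the comparisons above, and its part in the *Car11* level of 15.4 FPKM was not tested.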

How the results depend on the processing

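Of 91 values of single carbonic anhydrases under the alternatives, 82 stayed within a limit drawn from the Cufflinks intervals and 9 moved further. That limit was narrower than the full width of the interval. Taking rows of any status, taking the highest row per symbol and leaving out merged names left every one of these values unchanged. Those values are counted among the 82 and say nothing of stability. The scaling mattered most. With all rows of each library rescaled to a sum of 1000000, 1 carbonic anhydrase was higher and 1 lower by more than 1.5-fold, and the 6 lists of partners had 2 higher and 19 lower; 3.67% of all genes were then higher and 54.4% lower. The log2 ratios were then −0.23 for *Car2*, −1.06 for *Car4*, −0.57 for *Car8*, −0.29 for *Car11*, 0.63 for *Car13*, −0.40 for *Car14* and 0.34 for *Car3*, which was then no longer past 1.5-fold. Under the other scalings, *Car8* alone changed sign. When 1 FPKM was asked of both libraries, 1 of 6 carbonic anhydrases was higher, against 12.2% of all genes. When 5 FPKM was asked of either library, 1 of 5 was higher, and the lists had 5 higher and 1 lower, against 12.2% of all genes higher and 8.44% lower. Above a fold change of 2, 1 of 7 was higher, and the lists had 4 higher and 0 lower, against 6.87% of all genes higher and 3.68% lower. A pseudocount of 1 left 1 list gene lower, against 7.06% of all genes, and one of 0.01 gave *Car12* a log2 ratio of 1.22. With the interval midpoint, 3 of 7 carbonic anhydrases were higher, *Car2* being added, against 16.0% of all genes higher and 9.71% lower. With named rows rescaled to the same sum 3 of 8 were higher, *Car10* being added, against 14.7% of all genes higher and 11.0% lower. The filter of 1 stood on rescaled values there, and *Car10* passed it by its mutant value only. No paired analysis was possible because there is 1 library per genotype and the libraries carry no replicate numbers; for the same reason no library could be left out. Depth limits *Car10* and *Car12* most, and the difference between the libraries cannot be told apart from one between the genotypes.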
